A study of Mus musculus with 20 samples.

Results

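Phosphatidylcholine, the main phospholipid of membranes and of the lipid droplet surface, is made in the liver by enzymes that were followed here through 10 genes: *Chka*, *Chkb*, *Pcyt1a*, *Cept1*, *Chpt1*, *Pemt*, *Lpcat3*, *Mat1a*, *Gnmt* and *Bhmt*. They were chosen by name for their place in phosphatidylcholine synthesis and in the supply of methyl groups, out of 50559 genes in the count table. RNA-seq read counts were available for 20 mouse livers, 5 in each of 4 groups. All mice carried *Cideb* fl/fl alleles on a C57BL/6 background. WT livers came from mice injected with AAV-TBG-GFP and KO livers from mice injected with AAV-TBG-Cre. The TBG promoter is active in hepatocytes, so other liver cells were not targeted. The floxed exon is exon 2 of *Cideb*, which encodes a lipid droplet protein. Mice were fed a western diet (WD), rich in sugar, fat and cholesterol, or CDA-HFD, a high-fat diet that lacks choline and, by the study's methods, is also deficient in methionine. The labels give 3 months of either diet and neither age nor sex, whereas the study describes a longer period for hepatocyte KO mice on WD. Diet, its duration and anything else that separated the feeding cohorts cannot be told apart here. The labels do not say that each liver is a separate animal, so p-values measure the spread between these samples.

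Hepatocytes make phosphatidylcholine by a pair of routes. In the CDP-choline route, dietary choline is phosphorylated by choline kinases (encoded by *Chka* and *Chkb*), activated with CTP (*Pcyt1a*, the regulated step), and joined to diacylglycerol by the cholinephosphotransferases (*Chpt1* and *Cept1*, the latter also making phosphatidylethanolamine). In the other route, abundant in liver, PEMT methylates phosphatidylethanolamine with S-adenosylmethionine as methyl donor. MAT1A makes S-adenosylmethionine from methionine, GNMT uses it to methylate glycine when it is in excess, and BHMT returns homocysteine to methionine with a methyl group from betaine, an oxidation product of choline. LPCAT3 remodels the acyl chains of phosphatidylcholine, placing polyunsaturated fatty acids. Choline is thus both the substrate of the first route and the source of the betaine that BHMT uses.

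Libraries held 11697049 to 16827147 reads on genes. *Cideb* was at 4.78 to 7.57 CPM (counts relative to the TMM-scaled library size, computed once over the 20 livers) in WT livers on WD and at 0 to 0.389 CPM in KO livers. On CDA-HFD it was at 2.22 to 3.83 CPM in WT livers and 0 to 0.399 CPM in KO livers; KO liver 5 lay within the KO range. In KO liver 5 on CDA-HFD, 8 of the 10 genes were within the WT range, and it was the lowest of the KO livers for 6. For *Chkb* and *Lpcat3*, however, every KO liver on CDA-HFD was within the WT range. Dixon's test, given in a closing section, flagged KO liver 5 for none of the 10 genes. Values without KO liver 5 are given beside the results that it moved most. As this liver was singled out by these same genes, such values are no separate support. Scaling also mattered for the diet comparisons, since TMM factors were 0.817 to 0.987 on WD and 0.929 to 1.31 on CDA-HFD. Without these factors the median log2 fold change of all genes moved to 0.42 for diet in WT livers, 0.25 for diet in KO livers, -0.19 for KO on CDA-HFD and -0.15 for the interaction. The split of higher and lower calls over all genes then moved from 4335 and 4207 to 9120 and 1570 for diet in WT livers, from 1506 and 1286 to 3371 and 553 for diet in KO livers, from 1409 and 1255 to 517 and 1192 for KO on CDA-HFD, and from 59 and 40 to 18 and 26 for the interaction. All changes below are relative to TMM scaling, and every one of the 10 genes passed the filter on low counts in each comparison.

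Per kilobase of exon, *Mat1a* and *Gnmt* were the most abundant of the 10 in all 4 groups. In WT livers on WD, *Mat1a* was at 992 ± 256 CPM per kilobase (SD, n = 5) and *Gnmt* at 578 ± 202, with ranges that overlapped. *Bhmt* followed at 148 ± 49.7, *Pemt* at 74.3 ± 8.24, *Lpcat3* at 51.3 ± 2.51 and *Chpt1* at 44.9 ± 5.18 CPM per kilobase. Of these neighbours in the order, *Lpcat3* and *Chpt1* overlapped and the others did not. *Cept1* was at 28.1 ± 2.77, *Pcyt1a* at 23.5 ± 1.10, *Chka* at 5.59 ± 1.21 and *Chkb* at 0.995 ± 0.0863 CPM per kilobase, with no overlap between neighbours. The order differed on CDA-HFD, where *Chpt1* dropped from sixth to eighth place, below *Cept1* and *Pcyt1a*. In WT livers on CDA-HFD its 9.68 to 14.1 CPM per kilobase lay wholly under the 15.9 to 19.7 of *Pcyt1a*, whereas in KO livers the corresponding ranges, 14.3 to 27.0 and 16.5 to 24.2, overlapped.

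In GENCODE vM21 (GRCm38, the assembly that mm10 names), *Chpt1* spans chr10:88452745-88504073 on the minus strand, *Pemt* chr11:59970614-60046489 on the minus strand and *Lpcat3* chr6:124663027-124704418 on the plus strand. The methyl supply genes lie at chr14:41105035-41124412 on the plus strand (*Mat1a*), chr17:46725664-46729168 on the minus strand (*Gnmt*) and chr13:93616675-93637961 on the minus strand (*Bhmt*). *Gnmt*, *Mat1a* and *Pemt* share no exonic base with another gene. Of the stretches of 75 bases in *Cept1* transcripts, 20.7% also lie in *Dennd2d* on the opposite strand, as do 7.49% of those of *Lpcat3* in *Emg1*, 6.59% of those of *Pcyt1a* in *Slc51a* and 5.98% of those of *Chpt1* in *Sycp3*. If strand was not used in counting, reads there could fall in the tally of ambiguous reads, which was left out, and be counted for neither gene.

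**Figure D1:**
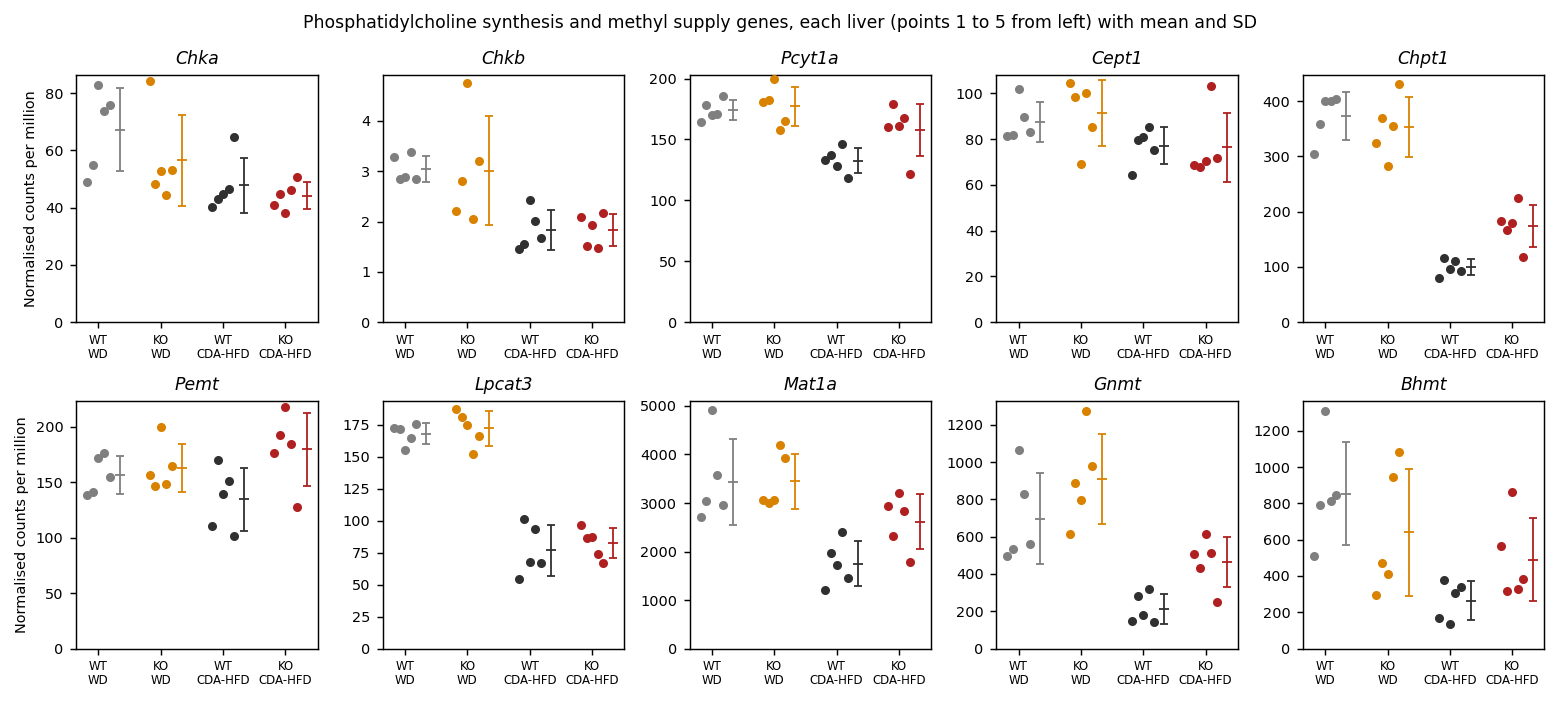
Normalised CPM (linear axis from 0) of the 10 genes in each of the 20 livers, 1 point a liver numbered 1 to 5 from the left, with the group mean and SD beside the points. *Chpt1* and *Lpcat3* lie lower on CDA-HFD than on WD in every liver, while *Cept1* and *Pemt* overlap between the diets in either genotype.

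The first comparison asked whether hepatocyte loss of *Cideb* changed these genes on WD, where choline was supplied. None of the 10 passed an adjusted p under 0.05 in edgeR, none did so in DESeq2, and 0 had an unadjusted p under 0.05. Of all 15848 genes tested, 0.0757% passed in either direction and 1702 had an unadjusted p under 0.05 in edgeR. Groups did not overlap for 2.22%, against none of the 10. The largest differences were in the methionine cycle, with opposite signs. *Gnmt* was at 495, 535, 1064, 830 and 561 CPM in WT livers 1 to 5 and at 617, 889, 800, 1272 and 978 CPM in KO livers, which gave 0.39 on the log2 scale (SE 0.24, adjusted p = 0.587). *Bhmt* was at 512, 793, 1307, 813 and 847 CPM in WT livers and at 293, 471, 411, 947 and 1083 CPM in KO livers, which gave -0.41 (SE 0.35, adjusted p = 0.71). In both cases the groups overlapped widely, and the exact two-sided permutation p was 0.214 for *Gnmt* and 0.317 for *Bhmt*. The CDP-choline and PEMT genes differed less. *Chpt1*, *Cept1*, *Pcyt1a*, *Pemt* and *Lpcat3* had log2 fold changes from -0.08 to 0.07, with standard errors from 0.07 to 0.12. *Chka* had one of -0.25 (SE 0.19, adjusted p = 0.653).

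The second comparison set CDA-HFD against WD in WT livers. Here 8 of the 10 genes fell, none rose, and 7 did not overlap between the diets. Over all 16726 genes tested, 25.2% passed as lower and 25.9% as higher, and 37.1% did not overlap. The median log2 fold change of the 10 genes was -0.86, beside -0.00 for all genes. Without TMM factors 5 genes passed as lower and 1, *Cept1*, passed as higher.

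Within the CDP-choline route the terminal enzyme fell most. *Chpt1* was at 304, 358, 400, 401 and 404 CPM in WT livers 1 to 5 on WD and at 80.6, 117, 96.9, 110 and 93.2 CPM on CDA-HFD. Every liver on CDA-HFD was far below the lowest liver on WD. The log2 fold change was -1.91 (SE 0.12, adjusted p = 2.85e-06), a 3.77-fold lower level, with an exact permutation p of 0.00794, the smallest that 5 against 5 livers can give. *Cept1*, whose product catalyses the same last step, was at 81.6, 82.0, 102, 89.6 and 83.0 CPM on WD and at 64.3, 79.7, 81.0, 85.5 and 75.2 CPM on CDA-HFD. These groups overlapped, and the log2 fold change of -0.19 (SE 0.09, adjusted p = 0.110) became 0.23 (adjusted p = 0.0114) without TMM factors.

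The upstream steps of the route moved less. *Pcyt1a* was at 165, 178, 170, 171 and 186 CPM on WD and at 133, 137, 128, 146 and 118 CPM on CDA-HFD, without overlap. The log2 fold change was -0.40 (SE 0.08, adjusted p = 0.00130), and 0.02 (adjusted p = 0.841) without TMM factors. *Chka* was at 48.8, 54.9, 82.8, 73.9 and 75.8 CPM on WD and at 40.3, 42.9, 44.7, 46.5 and 64.5 CPM on CDA-HFD. The groups overlapped, with a log2 fold change of -0.50 (SE 0.16, adjusted p = 0.0241) and an exact permutation p of 0.0556. The *Chka* call was lost without any one of WT livers 3, 4 or 5 on WD or WT livers 1, 2 or 3 on CDA-HFD (adjusted p from 0.0512 to 0.0601) and without TMM factors (log2 fold change -0.06, adjusted p = 0.758). *Chkb* was near the limit of these libraries, at 2.84 to 3.37 CPM on WD and 1.46 to 2.43 CPM on CDA-HFD, which stood for 20 to 51 reads a library over the 4 groups. For *Chkb* the log2 fold change was -0.74 (SE 0.18, adjusted p = 0.00444), and -0.32 (adjusted p = 0.155) without TMM factors. Of its 3061 exonic bases, 1552 are shared on the same strand with an overlapping gene, *Gm44502*, so that reads there could be left uncounted.

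*Pemt*, the methylation route, did not pass. It was at 139, 141, 172, 176 and 154 CPM on WD and at 110, 170, 139, 151 and 102 CPM on CDA-HFD, with overlapping groups. For *Pemt* the change was -0.22 on the log2 scale (SE 0.14, adjusted p = 0.205), and 0.19 (adjusted p = 0.128) without TMM factors.

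*Lpcat3*, which remodels phosphatidylcholine once made, was at 172, 172, 155, 165 and 175 CPM on WD and at 54.4, 102, 67.5, 93.5 and 67.0 CPM on CDA-HFD. No liver overlapped, and the log2 fold change was -1.14 (SE 0.15, adjusted p = 0.000135).

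The methionine cycle genes fell together. *Mat1a* was at 2701, 3032, 4920, 3587 and 2955 CPM on WD and at 1204, 1965, 1718, 2401 and 1455 CPM on CDA-HFD, a log2 fold change of -0.98 (SE 0.22, adjusted p = 0.00313). *Gnmt* on CDA-HFD was at 150, 280, 181, 318 and 140 CPM, each below the lowest WD liver at 495 CPM. It fell by 1.71 on the log2 scale (SE 0.28, adjusted p = 0.000444). *Bhmt* on CDA-HFD was at 167, 375, 133, 309 and 339 CPM, again below every WD liver, with a log2 fold change of -1.70 (SE 0.31, adjusted p = 0.000892). All 3 calls held in each of the 17 alternative fits. *Bhmt* shares 20.5% of its read-length stretches of 75 bases with its retrogene *Gm5096* and 10.9% with *Bhmt-ps1*. Reads that matched these equally could fall in the tally of reads without a unique match, which was left out of the counts.

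The same diet comparison in KO livers gave fewer calls: 3 of the 10 genes fell (*Chpt1*, *Lpcat3* and *Gnmt*), none rose, and the same 3 did not overlap. Over all 16387 genes tested, 7.85% passed as lower and 9.19% as higher, and 15.2% did not overlap. The median log2 fold change of the 10 genes was -0.40, beside 0.00 for all genes.

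In KO livers 1 to 5, *Chpt1* was at 325, 370, 284, 355 and 431 CPM with WD feeding and at 183, 168, 180, 225 and 119 CPM with CDA-HFD feeding, all 5 below the lowest WD liver. The log2 fold change was -1.02 (SE 0.16, adjusted p = 0.00230), and -0.91 (adjusted p = 0.00109) without KO liver 5. *Lpcat3* was at 187, 181, 175, 152 and 166 CPM on WD and at 96.7, 86.8, 87.2, 74.3 and 67.3 CPM on CDA-HFD, with a log2 fold change of -1.07 (SE 0.11, adjusted p = 0.000161). The highest KO liver on CDA-HFD was well below the lowest on WD, and this held without KO liver 5 (-1.01, adjusted p = 9.14e-05). *Gnmt* was at 507, 434, 613, 513 and 251 CPM on CDA-HFD, against at least 617 CPM on WD. *Gnmt* had a log2 fold change of -0.98 (SE 0.24, adjusted p = 0.0195), and -0.83 (adjusted p = 0.0126) without KO liver 5.

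The remaining 7 genes did not pass in KO livers. *Mat1a* was at 3064, 2997, 3053, 4199 and 3931 CPM on WD and at 2935, 2311, 3202, 2830 and 1785 CPM on CDA-HFD, with a log2 fold change of -0.41 (SE 0.19, adjusted p = 0.163). *Bhmt* was at 565, 318, 862, 328 and 381 CPM on CDA-HFD, inside its WD range of 293 to 1083 CPM, with a log2 fold change of -0.39 (SE 0.39, adjusted p = 0.516). For *Pemt* the log2 fold change was 0.13 (SE 0.14, adjusted p = 0.545), the only positive one of the 10. It was 0.23 (adjusted p = 0.168) without KO liver 5 and 0.36 (adjusted p = 0.0435) without TMM factors. The choline kinases had log2 fold changes of -0.36 (*Chka*, SE 0.16, adjusted p = 0.149) and -0.71 (*Chkb*, SE 0.25, adjusted p = 0.0767). *Pcyt1a* and *Cept1* had values of -0.17 (SE 0.11, adjusted p = 0.304) and -0.27 (SE 0.14, adjusted p = 0.222), and *Pcyt1a* was at -0.096 (adjusted p = 0.487) without KO liver 5.

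*Chpt1*, *Lpcat3* and *Gnmt* thus fell on CDA-HFD in both genotypes, and their upstream sequences are shown beside that of *Pemt*, which passed in neither. Sequences are from RefSeq windows of 250 bases before to 50 bases after each annotated start (GRCm38.p6), with the exonic bases left out, and read 5′ to 3′ on the gene's strand. Windows were found for 9 of the 10 genes (not *Mat1a*). Capitals mark matches on either strand to the letters TATAAA for the TATA box, to CCAAT for the box of that name, to GGGCGG for the GC box, to CACGTG for an E-box, or to AGGTCA for a nuclear receptor half-site. None of these motifs contains another. *Chpt1* lies on chromosome 10, minus strand (chr10:88504074-88504220 shown), *Lpcat3* on chromosome 6, plus strand (chr6:124662854-124663026), *Gnmt* on chromosome 17, minus strand (chr17:46729169-46729415) and *Pemt* on chromosome 11, minus strand (chr11:60040189-60040438, the outer of its pair of windows). The *Pemt* stretch lies before a RefSeq start but inside the longer span that GENCODE gives the gene.
Chpt1: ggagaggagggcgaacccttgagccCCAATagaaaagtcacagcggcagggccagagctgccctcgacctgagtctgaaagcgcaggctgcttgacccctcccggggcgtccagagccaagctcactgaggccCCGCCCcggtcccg
Lpcat3: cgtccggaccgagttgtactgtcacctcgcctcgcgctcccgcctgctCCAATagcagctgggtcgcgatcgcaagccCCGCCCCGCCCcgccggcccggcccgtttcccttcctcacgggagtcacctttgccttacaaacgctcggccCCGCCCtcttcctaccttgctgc
Gnmt: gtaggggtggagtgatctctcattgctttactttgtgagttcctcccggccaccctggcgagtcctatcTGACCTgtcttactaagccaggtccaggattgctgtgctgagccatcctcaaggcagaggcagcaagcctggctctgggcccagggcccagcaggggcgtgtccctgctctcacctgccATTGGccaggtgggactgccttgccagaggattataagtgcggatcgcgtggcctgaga
Pemt: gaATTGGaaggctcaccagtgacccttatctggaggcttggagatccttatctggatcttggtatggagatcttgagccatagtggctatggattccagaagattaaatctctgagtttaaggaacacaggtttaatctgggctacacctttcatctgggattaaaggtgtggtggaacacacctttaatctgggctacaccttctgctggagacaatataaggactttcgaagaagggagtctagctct
Over the whole windows, *Chpt1* held 1 CCAAT box and 5 GC boxes, and *Lpcat3* held 4 and 6, some GC boxes overlapping each other. *Gnmt* held 1 CCAAT box and 1 half-site, and *Pemt* 1 CCAAT box. *Cept1*, not shown, also passed in neither genotype, and its windows held 1, 3 and 0 GC boxes. GC boxes thus did not set the genes that fell apart from those that did not pass. Of 32851 windows of the same length in the table, 37.4% held a CCAAT box, 35.7% a GC box, 16.3% a half-site, 13.6% a TATA box and 7.15% the E-box. These are letters found in a window, not sites shown to be bound.

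The third comparison asked whether *Cideb* loss changed the genes on the choline-deficient diet. On CDA-HFD, *Chpt1* and *Gnmt* were higher in KO than in WT livers, none of the 10 was lower, and the groups did not overlap for *Chpt1* alone. Over all 17204 genes tested, 8.19% passed as higher and 7.29% as lower, and 9.57% did not overlap. The median log2 fold change of the 10 genes was 0.33, beside 0.00 for all genes.

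For *Chpt1*, WT livers 1 to 5 on CDA-HFD were at 80.6, 117, 96.9, 110 and 93.2 CPM and KO livers at 183, 168, 180, 225 and 119 CPM. KO liver 5 lay just above the highest WT liver and the other KO livers well above it. The log2 fold change was 0.81 (SE 0.16, adjusted p = 0.0150, exact permutation p = 0.00794), a 1.75-fold higher level, and it passed in each of the 17 alternative fits (adjusted p from 0.000158 to 0.0459). Without KO liver 5 the log2 fold change was 0.92 (adjusted p = 0.000402). The KO mean of 175 ± 38.0 CPM (SD, n = 5) was under the 353 ± 54.6 CPM (SD, n = 5) that KO livers had with WD.

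For *Gnmt*, WT livers were at 150, 280, 181, 318 and 140 CPM and KO livers at 507, 434, 613, 513 and 251 CPM. KO liver 5 was within the WT range, and the other KO livers were above it. The log2 fold change was 1.11 (SE 0.29, adjusted p = 0.0285, exact permutation p = 0.0238), and 1.27 (adjusted p = 0.00205) without KO liver 5. The call was lost without any one of WT livers 1, 3 or 5 or KO livers 1, 2, 3 or 4, with log2 fold changes from 0.99 to 1.14 and adjusted p from 0.0567 to 0.0770.

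Leaving out KO liver 5 raised the number of calls from 2 to 5, adding *Pcyt1a*, *Pemt* and *Mat1a*. KO liver 5 was the lowest KO liver for each of these genes, so its removal had to raise their KO means. The adjusted p-values without it are not independent of that choice. Calls over all 17411 genes tested rose as well, to 19.6% higher and 21.8% lower. *Pemt* was at 176, 192, 218, 184 and 128 CPM in KO livers, against 102 to 170 CPM in WT livers. On the log2 scale *Pemt* differed by 0.41 (SE 0.17, adjusted p = 0.116), and 0.51 (adjusted p = 0.0176) without KO liver 5. *Mat1a* in KO livers, given above, overlapped the WT range of 1204 to 2401 CPM in livers 2 and 5. The difference was 0.57 (SE 0.23, adjusted p = 0.101), and 0.69 (adjusted p = 0.0200) without KO liver 5. *Pcyt1a* was at 160, 179, 161, 167 and 122 CPM in KO livers, with KO liver 5 alone inside the WT range of 118 to 146 CPM. It differed by 0.25 (SE 0.11, adjusted p = 0.137), and 0.33 (adjusted p = 0.0114) without KO liver 5. With all livers kept, other settings gave log2 fold changes as low as 0.04 for *Pcyt1a*, 0.21 for *Pemt* and 0.38 for *Mat1a*. Of the 17 alternative fits, *Pcyt1a* passed in 1, and *Pemt* and *Mat1a* passed in 3 each. *Bhmt* had a log2 fold change of 0.89 (SE 0.36, adjusted p = 0.104) and did not pass without KO liver 5 either (0.97, adjusted p = 0.0504).

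The other 4 genes showed little difference between genotypes on CDA-HFD. Log2 fold changes were 0.10 for *Lpcat3* (SE 0.18, adjusted p = 0.715; 0.17 and adjusted p = 0.468 without KO liver 5), 0.00 for *Chkb* (SE 0.20), -0.02 for *Cept1* (SE 0.13) and -0.12 for *Chka* (SE 0.13, adjusted p = 0.538). All 4 overlapped between genotypes. Without TMM factors *Lpcat3* and *Chkb* were at -0.08 and -0.18, and neither passed. *Lpcat3* thus fell on CDA-HFD in either genotype without passing between the genotypes, whereas *Chpt1* fell in either genotype and was higher in KO than in WT livers on that diet.

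**Figure D2:**
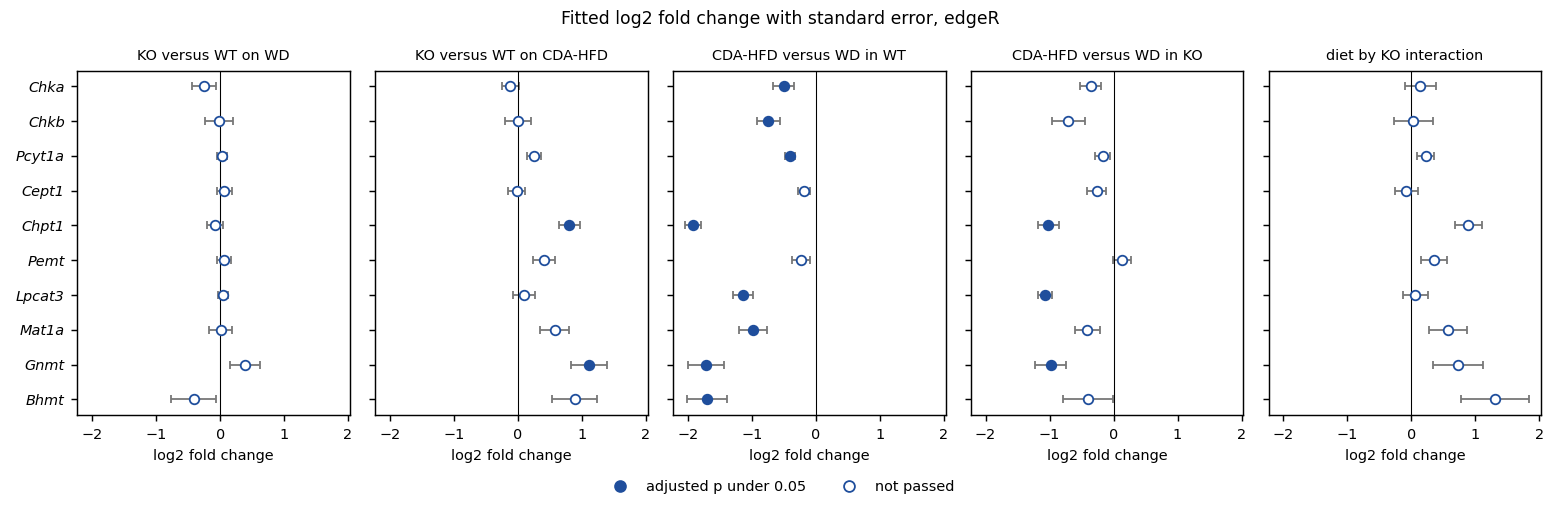
Fitted log2 fold change of each gene with its standard error (horizontal bars) in the 5 comparisons, with filled points for an adjusted p under 0.05 and open points otherwise. *Chpt1* is at -1.91 for diet in WT livers, -1.02 for diet in KO livers and 0.81 for KO on CDA-HFD, and no point is filled for KO on WD or for the interaction.

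Whether the KO effect differed between the diets was tested as an interaction over all 20 livers. It is the same number as the difference of the diet effect between KO and WT livers. None of the 10 genes passed in edgeR, beside 0.556% of 17804 genes in either direction, while 2 had an unadjusted p under 0.05 and 1 passed in DESeq2. Of all 17804 genes, 2736 had an unadjusted p under 0.05 in edgeR, and 232 were positive and 131 negative in DESeq2. *Chpt1* came nearest, with a difference in log2 fold change of 0.89 (SE 0.21, adjusted p = 0.0550). It passed in 6 of 26 alternative fits, among them DESeq2 (adjusted p = 0.00654), the fit without KO liver 5 on CDA-HFD (adjusted p = 0.00335), and those without WT liver 1 on WD (adjusted p = 0.0439) or KO liver 5 on WD (adjusted p = 0.0453). *Bhmt* had the largest difference, 1.31 (SE 0.53, adjusted p = 0.257), with the widest error. *Gnmt* was at 0.73 (SE 0.39, adjusted p = 0.374), *Mat1a* at 0.58 (SE 0.29, adjusted p = 0.355) and *Pemt* at 0.36 (SE 0.21, adjusted p = 0.416). *Lpcat3* was at 0.06 (SE 0.19, adjusted p = 0.904). A diet effect that passed in WT livers and not in KO livers, as for *Mat1a* and *Bhmt*, was therefore not shown to differ between the genotypes.

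**Figure D3:**
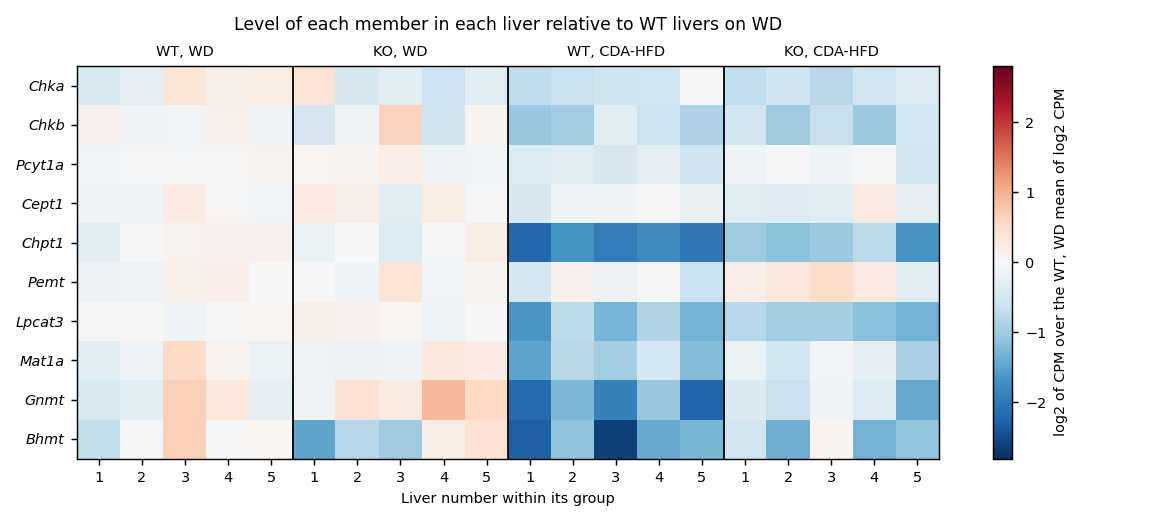
Log2 level of each gene (rows) in each of the 20 livers (columns, numbered within a group) relative to the mean of the 5 WT livers on WD, blue for lower and red for higher. KO liver 5 on CDA-HFD is bluer than the other KO livers of its group for *Chpt1*, *Mat1a* and *Gnmt*, at 119, 1785 and 251 CPM.

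Ratios within a liver compare genes without any scaling between libraries, and are given as a description on CPM per kilobase. The *Chpt1* to *Cept1* ratio, which sets the choline-specific against the dual-specificity enzyme, was 1.40 to 1.82 in WT livers and 1.16 to 1.89 in KO livers with WD. With CDA-HFD it was 0.448 to 0.550 in WT livers and 0.619 to 0.999 in KO livers. The 4 groups thus ordered with no overlap between diets or, on CDA-HFD, between genotypes, KO liver 5 being the lowest of the KO livers. The *Pemt* to *Chpt1* ratio, the methylation route against the last step of the choline route, was 1.51 to 1.80 and 1.51 to 2.78 on WD in WT and KO livers. It was 4.31 to 5.75 in WT livers and 3.24 to 4.78 in KO livers on CDA-HFD, higher than on WD in every liver. *Mat2a* encodes the methionine adenosyltransferase of non-hepatocyte and dividing cells. The *Mat1a* to *Mat2a* ratio was 29.1 to 56.7 in WT livers and 30.0 to 38.4 in KO livers on WD, and 6.89 to 15.5 and 14.6 to 20.7 on CDA-HFD. *Gnmt* to *Mat1a* was 0.508 to 0.666 in WT livers on WD and 0.277 to 0.409 on CDA-HFD, so *Gnmt* fell by more than *Mat1a*. In KO livers the same ratio was 0.579 to 0.871 with WD and 0.404 to 0.550 with CDA-HFD.

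**Figure D4:**
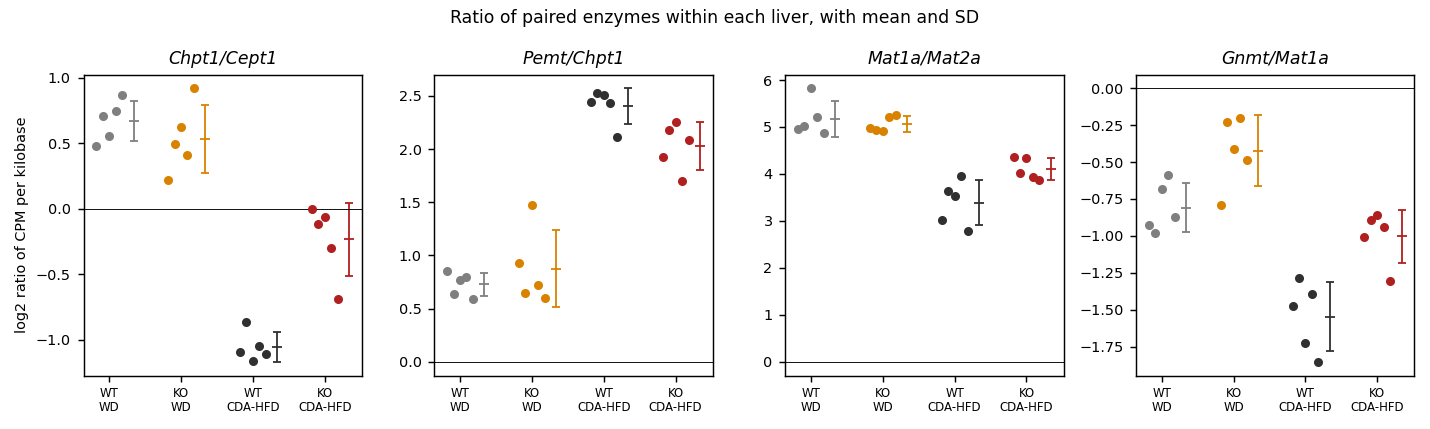
Log2 ratio of CPM per kilobase between paired enzymes in each liver, 1 point a liver, with the group mean and SD. *Chpt1* to *Cept1* is above 0 in all 10 livers on WD and below 0 in all 10 on CDA-HFD, with WT livers the lowest at a mean of -1.05.

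Markers of liver cell types moved with the diet and the genotype. In bulk livers, fewer hepatocytes and less RNA per hepatocyte cannot be told apart. Over all genes, 25.2% were lower and 25.9% higher for diet in WT livers, and 7.85% and 9.19% for diet in KO livers. For KO on CDA-HFD 7.29% were lower and 8.19% higher, and on WD 0.0757% passed between genotypes in either direction. Of 12 hepatocyte markers, 8 were lower and 1 higher on CDA-HFD in WT livers, and 5 were higher in KO than in WT livers on CDA-HFD. Their summed level was 68598 to 104211 CPM in WT and 80196 to 92897 CPM in KO livers on WD, and 40864 to 80598 and 40883 to 113137 CPM on CDA-HFD, where the lowest KO liver was KO liver 5. The other lists moved mostly the other way on CDA-HFD in WT livers: 11 of 12 stellate cell, 7 of 7 tested cholangiocyte, 6 of 12 macrophage, 6 of 10 tested lymphocyte and 4 of 5 tested neutrophil markers were higher, with 2 macrophage markers lower. Endothelial markers were lower for 8 of 12 and higher for 1. Between genotypes on CDA-HFD, 4 of 12 macrophage, 2 of 12 stellate cell and 5 of 5 tested neutrophil markers were lower in KO livers, and no cholangiocyte, endothelial or lymphocyte marker passed. In KO livers, CDA-HFD against WD, 1 of 12 hepatocyte markers was lower, and 5 of 12 macrophage, 4 of 12 stellate cell, 4 of 7 tested cholangiocyte, 4 of 7 tested lymphocyte, 1 of 12 endothelial and 1 of 3 tested neutrophil markers were higher. Stellate cell markers summed to 735 to 1389 CPM in WT and 690 to 1363 CPM in KO livers on WD, and to 2614 to 4328 and 1475 to 4495 CPM on CDA-HFD, with KO liver 5 the highest of its group. Macrophage markers summed to 448 to 1403 and 367 to 697 CPM on WD, and to 1839 to 3807 and 684 to 2174 CPM on CDA-HFD, again with KO liver 5 the highest. Cholangiocyte markers summed to 43.2 to 180 and 50.6 to 95.2 CPM on WD and to 382 to 816 and 84.9 to 671 CPM on CDA-HFD, and neutrophil markers to 7.44 to 33.9 and 4.94 to 18.3, then 30.1 to 65.5 and 9.71 to 20.9 CPM. Endothelial markers summed to 989 to 1039 and 972 to 1138 CPM on WD and to 713 to 831 and 659 to 1157 CPM on CDA-HFD, and lymphocyte markers to no more than 30.5 CPM in any liver. Only *Trbc2* of the 74 markers had no read in any library. On WD, none of the 60 markers tested passed between genotypes in edgeR, and 7 had an unadjusted p under 0.05, beside 1702 of all 15848 genes.

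Set against the mean log2 level of the 12 hepatocyte markers in the same liver, which was 0.62 lower on CDA-HFD in WT livers and 0.59 higher in KO than in WT livers on CDA-HFD, the genes divided. For diet in WT livers, *Chpt1* still differed by -1.29, *Bhmt* by -1.12, *Gnmt* by -1.10, *Lpcat3* by -0.54 and *Mat1a* by -0.36, all without overlap. *Cept1* and *Pemt* were at 0.44 and 0.38 on this measure, also without overlap, though their log2 CPM differed by -0.18 and -0.24. The choline kinases and *Pcyt1a* overlapped. For KO against WT livers on CDA-HFD, *Gnmt* was higher by 0.54 with no overlap, *Bhmt* by 0.30 and *Chpt1* by 0.20 with overlap, and *Mat1a* differed by -0.00. The other 6 were below 0 on this measure, all with overlap, with *Chka* at -0.69, *Cept1* at -0.62, *Chkb* at -0.58, *Lpcat3* at -0.46, *Pcyt1a* at -0.35 and *Pemt* at -0.17. Since the marker list itself moved, a gene with unchanged CPM would stand 0.62 higher on this measure for diet in WT livers. For KO on CDA-HFD it would stand 0.59 lower. The share of all genes without overlap on this measure is not given, so these values are descriptions only. How far cell composition made up the differences in CPM was not tested.

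The other 61 genes of the pathway, listed by role, were counted in the same fits. On WD none of the 57 tested passed between genotypes in edgeR or DESeq2, and 6 had an unadjusted p under 0.05, beside 1702 of all 15848 genes. For diet in WT livers 34 of 61 were lower and 14 higher, beside 25.2% and 25.9% of all genes, with a median log2 fold change of -0.42, and without TMM factors 22 were lower and 22 higher. Among the 14, *Pcyt1b*, *Slc44a4*, *Mboat1* and *Mboat2* were too low to be tested on WD. They passed the filter through their CDA-HFD level, so only a call as higher was open to them. In KO livers 7 of 58 tested were lower and 7 higher, beside 7.85% and 9.19% of all genes. Without TMM factors 4 were lower and 12 higher, and without KO liver 5, 10 were lower and 6 higher, beside 8.37% and 9.03% of all genes. For KO against WT livers on CDA-HFD 18 of 61 were higher and 4 lower, beside 8.19% and 7.29% of all genes, with a median of 0.25. That count of 22 fell to between 2 and 9 when any one of WT livers 1, 3 or 5 or KO livers 1 to 4 was left out. Over all genes 358 to 826 were then higher and 347 to 755 lower, beside 1409 and 1255 with every liver kept. The count of pathway genes rose to 45 (29 higher and 16 lower) without KO liver 5, when 19.6% of all genes were higher and 21.8% lower. The pathway genes named below for KO on CDA-HFD or for diet in KO livers passed in the same direction without KO liver 5. For KO on CDA-HFD this was a lenient check, since calls over all genes rose without that liver. Which of the named genes kept their call with another liver left out is not given here.

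**Figure D5:**
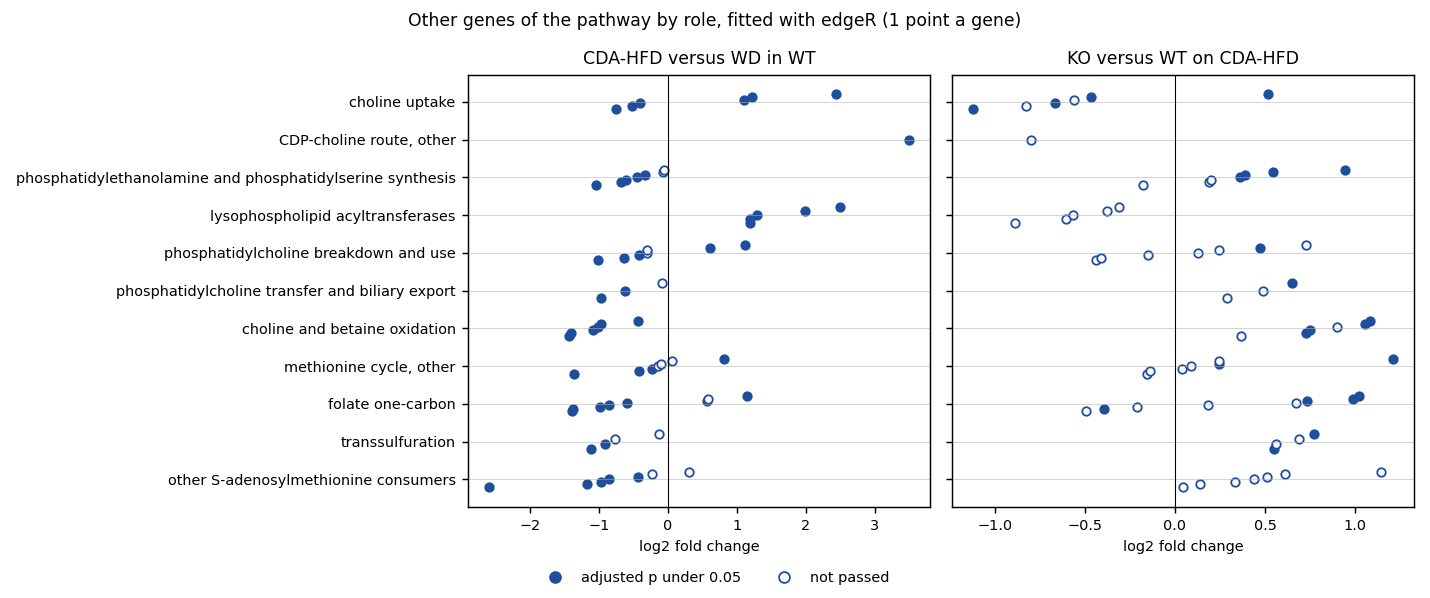
Log2 fold change of the 61 other pathway genes by role, 1 point a gene, for diet in WT livers (left) and for KO against WT livers on CDA-HFD (right), with filled points for an adjusted p under 0.05. All 6 genes of the choline and betaine oxidation list are filled and below 0 on the left, and 4 of them are filled and above 0 on the right.

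The list of choline and betaine oxidation also held genes for the steps that follow: *Dmgdh*, *Sardh* and *Pipox* act on dimethylglycine or sarcosine, and *Bhmt2* methylates homocysteine. All 6 genes of the list were lower on CDA-HFD in WT livers, 2 of 6 were lower in KO livers, and 4 of 6 were higher in KO than in WT livers on CDA-HFD. The shares over all genes were 25.2%, 7.85% and 8.19%. *Aldh7a1*, which makes betaine from betaine aldehyde, averaged 520 ± 86.5 CPM in WT livers on WD, 194 ± 53.7 CPM on CDA-HFD and 405 ± 98.8 CPM in KO livers on CDA-HFD (SD, n = 5 each). Between genotypes on CDA-HFD the log2 fold change was 1.06 (SE 0.23, adjusted p = 0.0182), and 1.20 (adjusted p = 0.000773) without KO liver 5. *Bhmt2*, which uses S-methylmethionine as methyl donor, had the smallest adjusted p of the class for diet in WT livers (log2 fold change -1.08, SE 0.14, adjusted p = 9.91e-05). *Pipox*, which oxidises sarcosine, had it in KO livers (-0.79, SE 0.21, adjusted p = 0.0287).

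Choline transporters went in both directions. For diet in WT livers 3 of 6 were higher, among them *Slc44a4* (log2 fold change 2.44, SE 0.27, adjusted p = 4.28e-05), and 3 were lower, among them *Slc44a1* (-0.53, SE 0.07, adjusted p = 8.04e-05). Over all genes 25.9% were higher and 25.2% lower. *Slc44a4* stood at 0.513 ± 0.216 CPM (SD, n = 5) on WD and 2.85 ± 0.632 CPM (SD, n = 5) on CDA-HFD. It was too low to be tested between genotypes on WD. It passed the filter through its CDA-HFD level, so only a call as higher was open to it. *Flvcr1*, encoding a choline importer, was lower in KO than in WT livers on CDA-HFD, at 7.20 ± 3.68 against 15.6 ± 3.04 CPM (log2 fold change -1.12, SE 0.28, adjusted p = 0.0252; -1.49 and adjusted p = 0.000143 without KO liver 5). In KO livers *Slc44a1* was lower on CDA-HFD (-0.91, SE 0.15, adjusted p = 0.00311) and *Slc44a2* higher (0.85, SE 0.26, adjusted p = 0.0474), the latter at 0.48 (adjusted p = 0.0206) without KO liver 5.

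*Pcyt1b*, a paralogue of *Pcyt1a* for the same step, was near 0 on WD, at 0.0730 to 0.392 CPM in WT livers, and at 2.15 to 2.48 CPM on CDA-HFD. It rose by 3.50 on the log2 scale (SE 0.34, adjusted p = 2.04e-05), which rested on 1 to 5 reads a library in WT livers on WD. Because *Pcyt1b* passed the filter through its CDA-HFD level, only a call as higher was open to it. Its sign can therefore not be set against that of *Pcyt1a*. In KO livers on CDA-HFD *Pcyt1b* spread from 0.488 to 2.40 CPM, and it did not pass between genotypes (log2 fold change -0.80, SE 0.33, adjusted p = 0.113).

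Genes for phosphatidylethanolamine and phosphatidylserine, the substrates and relatives of the PEMT route, were lower for 5 of 7 on CDA-HFD in WT livers and for none of 7 in KO livers in edgeR, where 3 had an unadjusted p under 0.05. Over all genes 25.2% and 7.85% were lower, and 5452 of 16387 had an unadjusted p under 0.05 for diet in KO livers. *Pcyt2*, the rate-limiting step of CDP-ethanolamine synthesis, fell from 418 ± 27.1 to 204 ± 31.0 CPM (SD, n = 5 each), or -1.05 in log2 terms (SE 0.11, adjusted p = 3.53e-05). On CDA-HFD 4 of 7 were higher in KO livers, beside 8.19% of all genes, led by the ethanolamine kinase gene *Etnk2* (0.94, SE 0.18, adjusted p = 0.0137). *Ptdss1*, which makes phosphatidylserine from phosphatidylcholine, was the one gene of the 61 whose interaction passed (0.48, SE 0.10, adjusted p = 0.0370). It was at 56.8 ± 3.87 and 52.4 ± 2.04 CPM on WD in WT and KO livers, and at 45.5 ± 3.83 and 58.7 ± 4.39 CPM on CDA-HFD (SD, n = 5 each). No pathway gene passed the interaction when any one of WT livers 3, 4 or 5 or KO livers 1 to 4 on WD, or WT livers 2 to 5 or KO livers 1, 3 or 4 on CDA-HFD, was left out, and 19 of the 61 passed without KO liver 5 on CDA-HFD (16 positive and 3 negative), when 6.17% of all genes passed as positive and 5.71% as negative.

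The lysophospholipid acyltransferases other than *Lpcat3* were all higher on CDA-HFD in WT livers, 5 of 5, beside 25.9% of all genes. Their log2 fold changes ran from 1.19 to 2.49. This was the reverse of *Lpcat3*. Their levels were low: *Mboat1*, at the top of that range (SE 0.41, adjusted p = 0.000397), stood at 0.364 ± 0.132 CPM on WD and 2.05 ± 0.907 CPM on CDA-HFD (SD, n = 5 each). *Mboat1* and *Mboat2* were too low to be tested between genotypes on WD. They passed the filter through their CDA-HFD level, so only a call as higher was open to them. In KO livers 2 of 4 tested were higher, beside 9.19% of all genes, *Lpcat4* with a log2 fold change of 1.38 (SE 0.38, adjusted p = 0.0303). None of 5 passed between genotypes on CDA-HFD in edgeR, 1 having an unadjusted p under 0.05, beside 6076 of all 17204 genes.

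Genes that break down, use or move phosphatidylcholine were split. On CDA-HFD in WT livers *Pld1*, a phospholipase D, was higher (log2 fold change 1.12, SE 0.18, adjusted p = 0.000346) and *Pnpla7*, a lysophospholipase, lower (-0.63, SE 0.07, adjusted p = 5.96e-05). Both also passed in KO livers, at 0.79 (SE 0.17, adjusted p = 0.0117) and -0.53 (SE 0.10, adjusted p = 0.00701). *Pctp*, a phosphatidylcholine transfer protein, was lower on CDA-HFD in WT livers (-0.96, SE 0.12, adjusted p = 8.21e-05) and higher in KO than in WT livers on that diet (0.65, SE 0.20, adjusted p = 0.0476). *Pnpla6* was also higher in KO livers (0.47, SE 0.10, adjusted p = 0.0181).

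In the methionine and folate cycles, *Mat2a* was higher on CDA-HFD in both genotypes, while *Mat1a* was lower in WT livers. *Mat2a* was at 120 ± 7.96 CPM in WT livers on WD and 212 ± 34.5 CPM on CDA-HFD (log2 fold change 0.81, SE 0.11, adjusted p = 0.000127), and its log2 fold change in KO livers was 0.54 (SE 0.11, adjusted p = 0.00797). *Ahcy*, which removes S-adenosylhomocysteine, fell from 326 ± 99.1 to 127 ± 40.5 CPM in WT livers (SD, n = 5 each), by 1.37 on the log2 scale (SE 0.24, adjusted p = 0.000711). It was at 295 ± 73.7 CPM in KO livers on CDA-HFD, 1.21 higher than in WT livers (SE 0.24, adjusted p = 0.0147). Of 8 folate genes, 5 were lower and 2 higher on CDA-HFD in WT livers, beside 25.2% and 25.9% of all genes, with *Shmt1* at -1.37 (SE 0.19, adjusted p = 0.000134). Between genotypes on CDA-HFD 3 were higher, led by *Aldh1l1* (1.02, SE 0.24, adjusted p = 0.0218), and *Mthfd1l* was lower (-0.40, SE 0.12, adjusted p = 0.0442), beside 8.19% and 7.29% of all genes. *Mthfd2* was the folate gene that passed in KO livers (1.26, SE 0.35, adjusted p = 0.0313).

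Finally, the genes whose levels followed each member most closely from liver to liver within groups were found among 11839 other genes, by Pearson's r of log2 CPM centred on each group over the 20 livers. These are descriptions, since the points share libraries and scaling. *Chkb* was too low to be included. *Gnmt* followed *Upb1*, *Ahcy* and *Ivd* (r of 0.97 each), and *Mat1a* followed *Slc25a15*, *Mrps31* and the urea cycle gene *Cps1* (0.95 each). *Bhmt* followed its retrogene *Gm5096* (0.96), then *Esrrg* (0.91) and *Ciart* (0.89). *Chpt1* followed *Pex3* (0.95), *Serping1* (0.94) and *Cfi* (0.93), *Pemt* followed *Prodh2*, *Akr7a5* and *Iah1* (0.93, 0.93 and 0.92), and *Pcyt1a* followed *Dvl1*, *Hsd17b4* and *Dus1l* (0.95, 0.94 and 0.93). *Cept1* followed *Nampt*, *Wac* and *Zfp970* (0.92, 0.91 and 0.90), *Lpcat3* followed *Nsdhl*, *Pyroxd2* and *Adipor2* (0.87 each), and *Chka* followed *Nicn1*, *Srpk1* and *Gm35558* (0.82, 0.76 and 0.76). Without KO liver 5 on CDA-HFD, the same 3 genes led for *Gnmt* and *Pemt*. Among the members themselves, *Mat1a* and *Gnmt* were closest (0.93, and 0.91 without that liver), whereas *Pcyt1a* and *Chpt1* dropped from 0.39 to -0.07 without it.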

How the data were processed

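RNA-seq was done on 20 mouse livers, 5 in each of 4 groups taken from the labels. The authors deposited raw read counts per gene against mm10; the aligner and counter are not given in the sources used here. The labels and the study name different library kits, so the use of strand is unknown. The table's 5 tallies of unassigned reads, 50.3 to 57.0% of all reads tallied, were left out. Counts were tested with edgeR 4.0.16 (filterByExpr, TMM scaling, quasi-likelihood test, Benjamini-Hochberg adjustment over all genes tested) on the 10 livers of a comparison, or on all 20 for the interaction, after the scripts were tested on simulated data. Single genes also had an exact permutation test of CPM (252 splits). Levels per kilobase used GENCODE vM21 exonic lengths. Alternatives were RLE size factors, no scaling factors, DESeq2 1.42.0, other filters on low counts, a replicate block, 1 fit of all livers, and each liver left out. The genes and lists were chosen with earlier results of these data known. Named were the 10 genes, *Cideb*, the pathway gene with the smallest adjusted p in each role, comparison and direction, and the 3 genes most correlated with each of the 10 (mean log2 CPM of at least 2). Some results that this rule names are not reported here. Levels relative to hepatocyte markers were added after values were seen. Livers with the same number were treated as unpaired, since the labels do not say that the numbers pair them. Residual correlations ran from -0.37 to 0.35 over 20 pairs. No libraries agreed within sampling noise. Intervals of counting error are not given, since reads without molecular identifiers are not independent molecules.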

Additional observations from a re-analysis of the deposited data

Results flagged for a closer look

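In 40 groups of 5 livers (10 genes in 4 groups), 3 held a liver far from the rest by Dixon's test, where chance gives about 1 in 20. *Cept1* was at 103 CPM in KO liver 4 on CDA-HFD, where the remaining 4 were at 67.9 to 71.8 CPM (gap 0.889 of the group's range). *Chka* was at 84.2 CPM in KO liver 1 on WD, against 44.3 to 53.2 CPM (gap 0.777), and at 64.5 CPM in WT liver 5 on CDA-HFD, against 40.3 to 46.5 CPM (gap 0.745). *Ptdss1* had a KO effect that differed between the diets by 0.48 on the log2 scale (adjusted p = 0.0370 for the interaction in edgeR).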

How the results depend on the processing

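Of 340 values recomputed under another setting, 315 kept direction and side of the threshold, 2 lost and 9 gained a call and 14 changed sign; with 1 liver left out, 545 of 600 kept both, 13 lost and 6 gained a call and 36 changed sign. Sign changes sat mostly near 0. For *Mat1a*, KO on WD, the log2 fold change was -0.000362 with RLE size factors and with DESeq2, -0.0075 without scaling factors and -0.000405 without a filter. Without scaling factors it was -0.18 for *Chkb* and -0.083 for *Lpcat3* for KO on CDA-HFD; 0.020, 0.23 and 0.19 for *Pcyt1a*, *Cept1* and *Pemt* for diet in WT livers; 0.060 for *Pcyt1a* for diet in KO livers; and -0.049, -0.13 and -0.096 for *Chka*, *Chkb* and *Lpcat3* in the interaction. With at least 10 counts in every library, *Chkb* was at -0.011 for KO on CDA-HFD.

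Of the 10 genes, 4 passed for KO on CDA-HFD with all 20 libraries in 1 fit, beside 2388 higher and 1782 lower of 17804 genes. For the interaction 1 passed without scaling factors, with DESeq2 and with at least 10 counts. Over all genes, 18 were then positive and 26 negative of 17804, 232 and 131 of 17804, and 61 and 42 of 13826. Of the pathway genes, 12 passed for KO on CDA-HFD without scaling factors, beside 517 higher and 1192 lower of 17204 genes. For diet in KO livers 23 passed with all 20 libraries in 1 fit, beside 2587 higher and 1889 lower of 17804 genes. For the interaction 0 passed without scaling factors or filter and 2 with DESeq2. Without a filter, 29 of 36791 genes were positive and 23 negative. The cause was not tested. A replicate block gave 9 pathway calls for diet in KO livers and 0 for the interaction, and 3 of the 10 genes for KO on CDA-HFD, adding *Pemt* (adjusted p = 0.0477, edgeR). With the block, 1041 of 16387 genes were higher and 1003 lower for diet in KO livers. For KO on CDA-HFD, 1208 of 17204 were higher and 1251 lower, and for the interaction 33 of 17804 were positive and 30 negative. As the labels do not say that shared numbers pair the livers, the block was kept as an alternative.

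With each liver left out, calls for KO on CDA-HFD ranged from 1 to 5 of the 10 genes and 2 to 45 pathway genes, pathway calls for diet in KO livers from 6 to 18, and the interaction from 0 to 1 and 0 to 19. Calls over all genes moved too. For KO on CDA-HFD, 358 were higher and 378 lower without KO liver 3 on that diet, and 3406 and 3795 without KO liver 5. For diet in KO livers, 1011 were higher and 857 lower without KO liver 2 on CDA-HFD, and 1556 and 1277 without KO liver 3. For the interaction, 1110 were positive and 1028 negative without KO liver 5 on CDA-HFD. Log2 fold changes that crossed 0 ranged, for KO on WD, from -0.25 to 0.080 (*Chkb*), -0.025 to 0.054 (*Pcyt1a*), -0.027 to 0.11 (*Pemt*) and -0.085 to 0.16 (*Mat1a*); for KO on CDA-HFD, from -0.18 to 0.013 (*Chka*), -0.069 to 0.13 (*Chkb*), -0.15 to 0.024 (*Cept1*) and -0.0057 to 0.22 (*Lpcat3*); and for the interaction, from -0.087 to 0.25 (*Chkb*) and -0.036 to 0.19 (*Lpcat3*). Depth limited *Chkb* most, at 20 to 51 reads a library.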

Other observations

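Genes that draw on S-adenosylmethionine or homocysteine outside phosphatidylcholine synthesis were also measured. For diet in WT livers 5 of 7 other S-adenosylmethionine consumers were lower, beside 25.2% of all genes. *Hnmt*, which methylates histamine, was at 42.9 ± 4.13 CPM on WD and 22 ± 2.79 CPM on CDA-HFD (SD, n = 5 each), a difference of -0.97 (log2, SE 0.10, adjusted p = 3.16e-05). In KO livers *Inmt*, an indolethylamine N-methyltransferase gene, fell from 759 ± 124 to 129 ± 51.4 CPM (-2.57, SE 0.26, adjusted p = 0.000163), and *Amd1*, of polyamine synthesis, was higher (0.57, SE 0.15, adjusted p = 0.0283). None of the 7 passed between genotypes on CDA-HFD in edgeR, 2 having an unadjusted p under 0.05, beside 6076 of all 17204 genes. Of 4 transsulfuration genes, 2 were lower on CDA-HFD in WT livers, *Cbs* with a log2 fold change of -1.11 (SE 0.17, adjusted p = 0.000312), and 2 were higher in KO than in WT livers on CDA-HFD, *Cdo1* with 0.55 (SE 0.14, adjusted p = 0.0281). The shares over all genes were 25.2% and 8.19%.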
